A study of Homo sapiens with 6 samples.

Results

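The nuclear-encoded subunits of the respiratory chain are the proteins of complexes I to V whose genes lie in the nucleus, as opposed to the few core subunits encoded by mitochondrial DNA. They were taken by name: protein-coding genes with a symbol that starts with NDUFA, NDUFB, NDUFC, NDUFS or NDUFV (assembly factors named NDUFAF left out), UQCR, COX4, COX5, COX6, COX7, COX8 or ATP5 (the inhibitor ATP5IF1 left out), together with SDHA, SDHB, SDHC, SDHD and CYC1. The names gave 88 genes among 60612 identifiers: 37 of complex I, 4 of complex II, 10 of complex III, 19 of complex IV and 18 of complex V. NDUFA4 and NDUFA4L2 were placed in complex IV, where the NDUFA4 protein is known to sit in spite of its name. RNA was measured by sequencing in U937, an established human line of monocyte-like leukemia cells labelled as wild type. One group of 3 libraries came from cells given 1 µM of a compound known only as B2 for 36 h, and the other group of 3 from cells given the solvent DMSO for the same 36 h. All of the cells were without serum during treatment. The libraries are numbered 1 to 3 in each group, and nothing in the labels says that they came from separate cultures. The p-values thus reflect how far these libraries spread, and that spread may be technical.

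The respiratory chain sits in the inner mitochondrial membrane. Complexes I and II take electrons from NADH and from succinate, complex III passes them from ubiquinol to cytochrome c, and complex IV hands them to oxygen. Complexes I, III and IV pump protons, and complex V, the ATP synthase, makes ATP as the protons flow back. Complex II is built from nuclear genes alone, while the other complexes combine nuclear and mitochondrial products. Many of the nuclear genes have housekeeping promoters rich in CpG, where the factors NRF1, GABPA (an ETS factor) and YY1 are known to bind.

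Each library held 61150740 to 78431054 counts, of which mitochondrially encoded genes took 6.44% to 10.3%. Levels are given in CPM, counts relative to a library total scaled by TMM factors between 0.86 and 1.07. The series title names the calcium-binding alarmin S100A9 as the target, and its level was 25.5, 20.2 and 670 CPM in B2 replicates 1 to 3, against 37.1, 17.6 and 603 CPM in DMSO replicates 1 to 3. The libraries numbered 3 stood apart in both groups. The 8 markers fixed for a myeloid leukemia line summed to 2777 to 4119 CPM with B2 and 2762 to 3750 CPM with DMSO, with the granule gene MPO at most at 1.67 CPM. The 8 macrophage markers summed to 965 CPM with B2 and 1013 CPM with DMSO in the libraries numbered 3, and to at most 15.7 CPM in the others, with MRC1 at 0 throughout. The 6 epithelial markers summed to 39.7 to 49.6 CPM with B2 and to 3.03, 10.4 and 34.8 CPM in DMSO replicates 1 to 3, so that the sums did not overlap. By gene, KRT8, KRT19 and ERBB2 lay entirely higher with B2, as did 1.94% of all genes, while KRT18, EPCAM and CDH1 overlapped. None of the 6 had an edgeR adjusted p below 0.05. The 5 T cell markers summed to at most 4.82 CPM, with CD3D, CD3E and CD3G at 0. The 4 B cell markers summed to 7.20 to 10.4 CPM, the 4 erythroid markers to at most 0.215 CPM and the 5 heart and skeletal muscle markers to at most 0.941 CPM.

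Promoter sequences from RefSeq (GRCh38.p14), running from 250 bases before to 50 bases after the annotated start, were matched for 69 of the 88 genes. The NRF1 core GCGCATGCG was found in 10 of the 69, or 14.5%, against 2.4% of 22199 protein-coding promoters of the same length. Its carriers were NDUFA8, NDUFB4, NDUFS6 and NDUFS7 of complex I, SDHD of complex II, COX6A1 of complex IV and ATP5F1C, ATP5MC2, ATP5ME and ATP5PF of complex V. The ETS core CCGGAAG was in 20 of the 69, where 12.8% of all protein-coding promoters held it, and the YY1 core AAGATGGCG was in 8 of the 69, or 11.6%, against 2.4%. At least 1 of these 3 cores was in 31 of the 69, or 44.9%, against 16.4% of all protein-coding promoters. The Sp1 box GGGCGG was in 59.4% against 56.3%, and TATAAA in 10.1% against 9.5%. Both strands were searched, and the NRF1 core overlaps its own reverse complement in SDHD. These shares are descriptions, and a match is not a measured binding site. The 5 promoters printed here hold the contrasts described with the values further on: COX6A1 and COX6A2 are the ubiquitous and the muscle form of 1 subunit, SDHD and NDUFS7 both hold the NRF1 core while their RNA differed in opposite directions between DMSO replicates 1 and 2, and ATP5PF holds the NRF1, ETS and YY1 cores together. Each is written 5′ to 3′ on the strand of its gene, with capitals for every match to these 5 motifs on either strand.
COX6A1: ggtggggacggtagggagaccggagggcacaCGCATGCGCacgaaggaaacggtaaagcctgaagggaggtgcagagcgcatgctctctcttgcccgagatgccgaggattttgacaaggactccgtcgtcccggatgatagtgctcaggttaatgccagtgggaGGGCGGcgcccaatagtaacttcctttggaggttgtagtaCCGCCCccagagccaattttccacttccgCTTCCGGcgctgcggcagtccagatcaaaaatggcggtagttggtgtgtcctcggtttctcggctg
COX6A2: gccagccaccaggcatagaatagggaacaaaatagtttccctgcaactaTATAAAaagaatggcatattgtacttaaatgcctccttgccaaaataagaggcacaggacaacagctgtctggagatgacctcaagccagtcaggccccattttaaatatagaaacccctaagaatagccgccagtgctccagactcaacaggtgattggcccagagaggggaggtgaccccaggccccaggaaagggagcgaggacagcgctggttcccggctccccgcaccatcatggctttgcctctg
SDHD: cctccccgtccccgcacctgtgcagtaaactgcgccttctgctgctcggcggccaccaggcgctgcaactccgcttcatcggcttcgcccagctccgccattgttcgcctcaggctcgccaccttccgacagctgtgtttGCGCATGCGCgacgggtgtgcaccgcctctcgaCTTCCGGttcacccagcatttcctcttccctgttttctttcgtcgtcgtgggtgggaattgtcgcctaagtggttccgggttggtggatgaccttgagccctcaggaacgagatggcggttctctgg
NDUFS7: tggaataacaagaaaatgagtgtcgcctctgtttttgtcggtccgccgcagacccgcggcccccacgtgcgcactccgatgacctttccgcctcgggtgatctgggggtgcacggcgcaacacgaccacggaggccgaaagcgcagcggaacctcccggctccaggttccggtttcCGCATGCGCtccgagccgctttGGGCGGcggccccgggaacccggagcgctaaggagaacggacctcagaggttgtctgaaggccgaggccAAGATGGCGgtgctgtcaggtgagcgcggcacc
ATP5PF: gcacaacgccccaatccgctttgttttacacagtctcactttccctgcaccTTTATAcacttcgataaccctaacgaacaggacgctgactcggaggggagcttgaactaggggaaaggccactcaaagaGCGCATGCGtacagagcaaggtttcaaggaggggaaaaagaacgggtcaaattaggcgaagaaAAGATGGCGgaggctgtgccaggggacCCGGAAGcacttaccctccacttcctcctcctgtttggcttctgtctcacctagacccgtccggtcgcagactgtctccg
COX6A1 starts on chromosome 12 (120437863 to 120438162, plus strand) with 22 CpG dinucleotides in the printed stretch, and COX6A2 on chromosome 16 (31428311 to 31428610, minus strand) with 5. SDHD lies on chromosome 11 (112086623 to 112086922, plus strand) with 27, NDUFS7 on chromosome 19 (1383657 to 1383956, plus strand) with 34, and ATP5PF on chromosome 21 (25735005 to 25735304, minus strand) with 16. COX6A2 holds none of the NRF1, ETS and YY1 cores in this window.

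No subunit was called different between B2 and DMSO. Among the 88 genes, 83 had enough counts to be tested: all of complexes I, II and III, 15 of 19 of complex IV and 17 of 18 of complex V. Of these 83, 0 had an adjusted p below 0.05 in edgeR's quasi-likelihood test, against 0% of all 17224 genes tested. At an unadjusted p below 0.05 there were 0 of 83, beside 0.493% of all genes, and with the replicate number as a block 0 of 83 beside 1.32%. DESeq2 and limma-voom also called 0 of the subunits. Every subunit had an edgeR adjusted p of 1.0, and the smallest unadjusted p was 0.155, for NDUFA5. The 2 groups overlapped in each of the 83, whereas 1.63% of all genes lay entirely lower and 1.94% entirely higher with B2. In bulk RNA, fewer cells of a type and less RNA per cell cannot be told apart.

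The estimates were small, and their intervals were narrower than those of genes at large. Genes at large also had lower levels, with a median log2 CPM of 3.16 against 6.47 for the subunits. The intervals were not set beside those of genes of like level. The log2 fold change, B2 over DMSO, was negative for 72 and positive for 11 of the 83, with a median of -0.12, where all tested genes had a median of -0.08 and 62.1% negative. By complex the median was -0.12 for complex I (3 positive, 34 negative), -0.05 for complex II (0 positive, 4 negative), -0.10 for complex III (2 positive, 8 negative), -0.12 for complex IV (1 positive, 14 negative) and -0.09 for complex V (5 positive, 12 negative). The 95% interval held 0 for all 83 genes. It lay within a 2-fold difference in either direction for 71 of them, or 85.5%, against 36.6% of all genes tested. The median standard error was 0.29 for the subunits and 0.41 for all genes. The split of directions depended on the scaling: with library totals in place of TMM factors, 38 were positive and 45 negative with a median of -0.01, while the median of all genes was 0.00060. With RLE factors 8 were positive and 75 negative, and with upper-quartile factors 19 were positive and 64 negative. The split also depended on DMSO replicate 1, without which 65 were positive and 18 negative with a median of 0.11. Without DMSO replicate 2 the median was -0.27. Between libraries of the same number the median difference of the subunits was -0.39, 0.12 and 0.11 for numbers 1, 2 and 3, and only 6 of the 83 had the same sign in all 3 pairs, each of them negative.

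**Figure D1:**
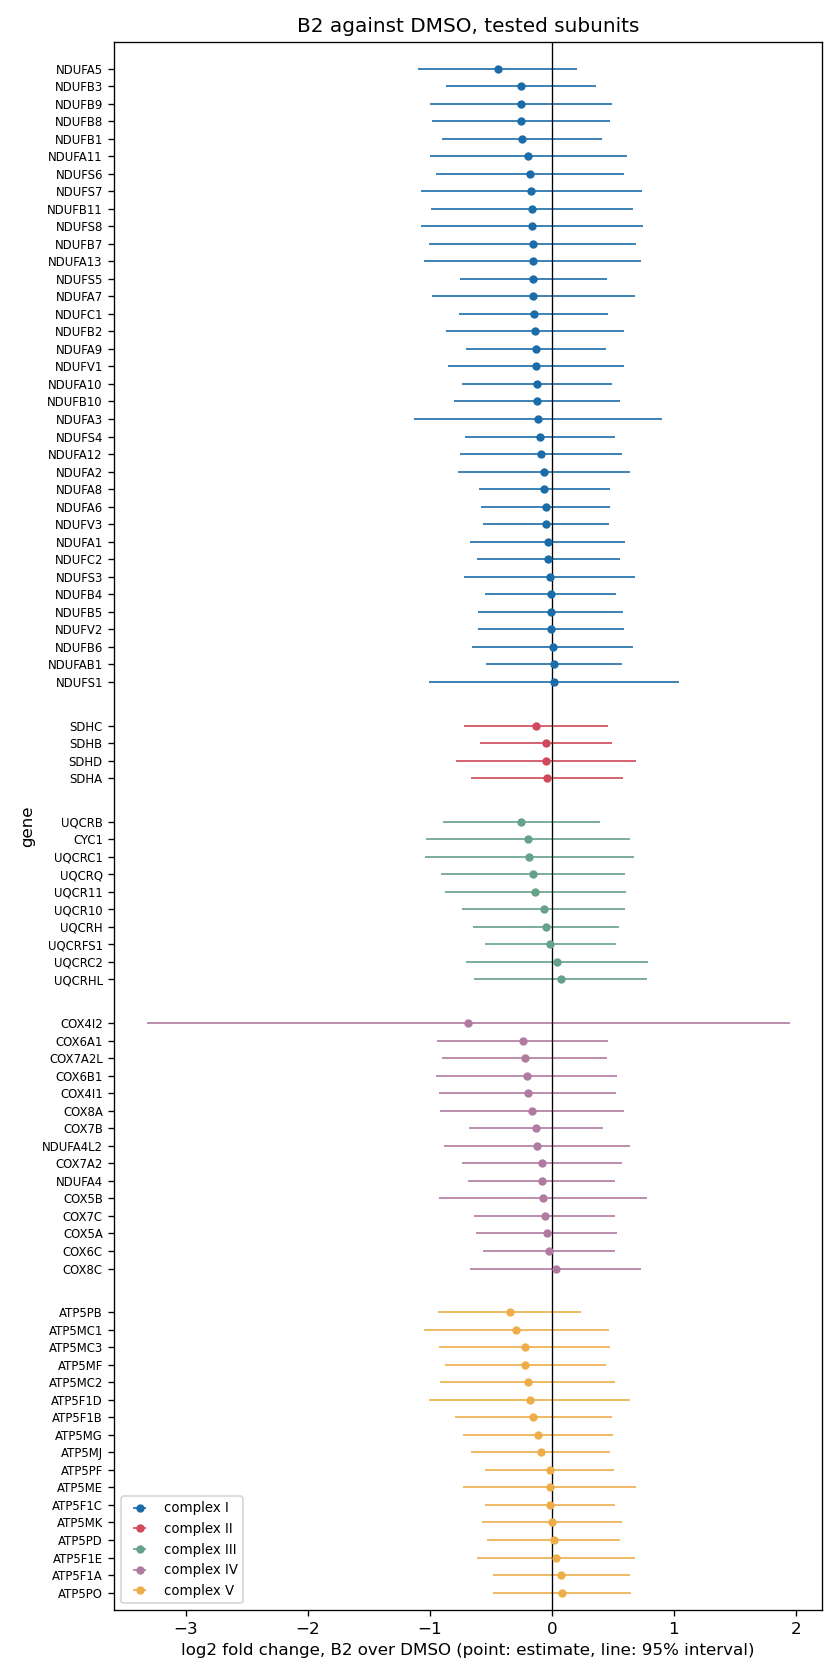
Log2 fold change of B2 over DMSO for 82 of the 83 tested subunits, grouped by complex, on a linear axis of log2 units. Points are the edgeR estimates and lines their 95% intervals, all of which cross 0, with COX4I2 (0 to 0.287 CPM) by far the widest.

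The subunits differed more between the DMSO libraries than between the groups. In 64 of the 83 the highest level was in DMSO replicate 1, and in 50 the lowest was in DMSO replicate 2, where 24.9% and 23.1% of all genes did the same. Both held at once for 48 subunits, or 57.8%, against 13.05% of all genes. The 3 B2 values lay within the range of the DMSO values in 60 subunits, or 72.3%, against 50.3% of all genes. Summed over the 88 genes, the level was 11232, 10286 and 11766 CPM in B2 replicates 1 to 3, against 15265, 9713 and 11106 CPM in DMSO replicates 1 to 3. Relative to each gene's mean over the 6 libraries, the median subunit stood at -0.01, -0.14 and 0.04 log2 units in B2 replicates 1 to 3 and at 0.36, -0.26 and -0.03 in DMSO replicates 1 to 3. Such deviations sum to 0 within a gene, so the high and the low library are not independent of each other. The height of DMSO replicate 1 depended on the scaling, with a median of 0.15 under library totals and 41 subunits highest there. With RLE factors the median was 0.47, and with upper-quartile factors it was 0.44.

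**Figure D2:**
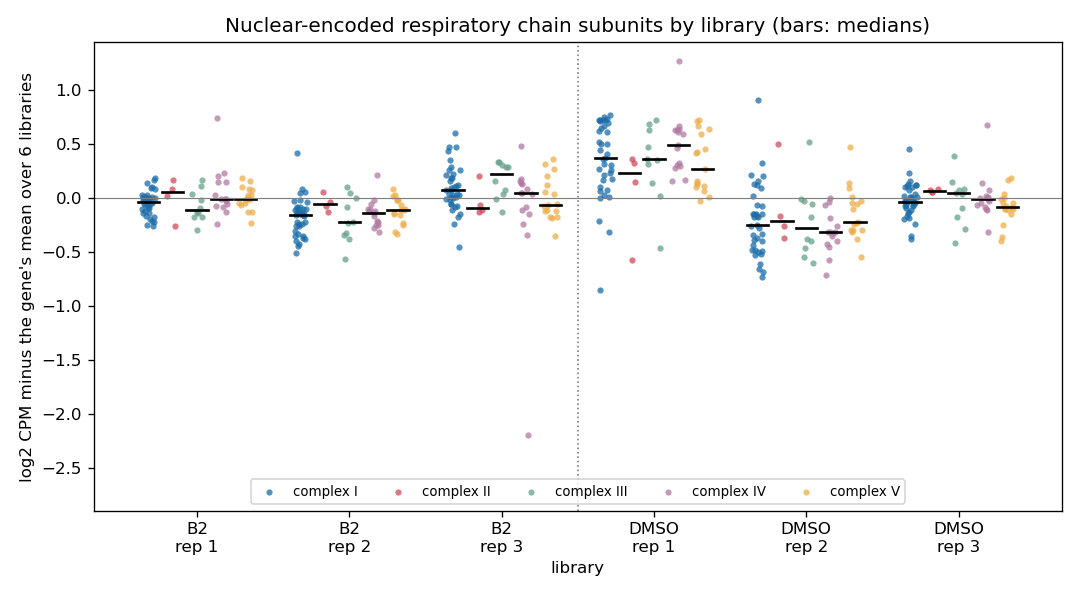
Level of each of the 83 tested subunits in each library, as log2 CPM minus the gene's mean over the 6 libraries. Points are genes coloured by complex and bars are medians, which over all subunits are -0.01, -0.14 and 0.04 for B2 replicates 1 to 3 and 0.36, -0.26 and -0.03 for DMSO replicates 1 to 3.

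Complex I, the NADH dehydrogenase, had its 37 nuclear subunits summing to 2975, 2712 and 3293 CPM with B2, against 4279, 2568 and 2966 CPM with DMSO. NDUFV1 (chromosome 11, 67605653 to 67612554, in GRCh38 coordinates of GENCODE 29 as for the other genes), the subunit that binds NADH and FMN, read 187, 175 and 209 CPM with B2, against 297, 144 and 183 CPM with DMSO, so that DMSO replicate 1 was the highest library and DMSO replicate 2 the lowest. The mean ± SD of NDUFV1 was 190.4 ± 17.3 CPM for the 3 B2 libraries and 208 ± 79.3 CPM for the 3 DMSO libraries (n = 3 per group), which gave a log2 fold change of -0.13 with a standard error of 0.31. NDUFS7 (chromosome 19, 1383527 to 1395589), an iron-sulfur subunit near the quinone site whose promoter is printed above, read 104, 90.3 and 160.3 CPM with B2, against 195, 73.9 and 129.6 CPM with DMSO. Its B2 values again lay inside the DMSO range, with a log2 fold change of -0.17 (95% interval -1.07 to 0.74). Its neighbour in the same arm, NDUFS8, read 66.2, 56.9 and 106 CPM with B2, against 127, 50.1 and 78.8 CPM with DMSO, the same order of libraries. NDUFS3, another core subunit of the quinone module, read 86.4, 83.1 and 104 CPM with B2, against 127, 64.0 and 85.4 CPM with DMSO. Its spread over the DMSO libraries was narrower than that of NDUFS7.

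NDUFS1 (chromosome 2, 206114817 to 206159603), the largest subunit of the NADH module and a carrier of iron-sulfur clusters, ran the other way. It read 50.1, 73.4 and 55.4 CPM with B2, against 30.4, 103 and 43.2 CPM with DMSO: the lowest of the 6 libraries was DMSO replicate 1 and the highest was DMSO replicate 2. Its DMSO replicate 1 level was 0.296 of that in DMSO replicate 2, while the median of that ratio was 1.51 over the subunits and 0.818 over all genes. The groups averaged 59.6 ± 12.2 CPM with B2 and 58.9 ± 38.7 CPM with DMSO (n = 3 each), with a log2 fold change of 0.018 and a standard error of 0.45, the widest error of complex I. Without DMSO replicate 2 the NDUFS1 estimate was 0.67 with an unadjusted p of 0.0413 (edgeR adjusted p = 0.777). In that fit 2 of the 84 subunits tested, NDUFS1 and NDUFA5, had an unadjusted p below 0.05, beside 987 of 17893 genes. NDUFV2, its partner in the NADH module, read 45.6, 49.5 and 65.0 CPM with B2, against 45.9, 57.9 and 57.1 CPM with DMSO, with little difference between groups.

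NDUFA5 (chromosome 7, 123536997 to 123558255), an accessory subunit of the peripheral arm, had the most negative estimate of complex I. It read 14.1, 13.2 and 16.1 CPM with B2, against 20.2, 15.9 and 22.9 CPM with DMSO, and B2 replicate 3 at 16.1 CPM reached just above DMSO replicate 2 at 15.9 CPM, which is the only overlap. Its log2 fold change was -0.44 (standard error 0.28, 95% interval -1.09 to 0.21, edgeR adjusted p = 1.0). The estimate was -0.60 without DMSO replicate 2 (unadjusted p = 0.0478, edgeR adjusted p = 0.777), where 987 of 17893 genes had an unadjusted p below 0.05. It was -0.14 with the trend on transcript length and GC removed. NDUFB3, a membrane arm subunit, read 30.0, 21.1 and 24.2 CPM with B2, against 28.6, 29.1 and 32.1 CPM with DMSO, with a log2 fold change of -0.25. The subunits with the steadiest levels were also in complex I: NDUFV3, an accessory subunit of the NADH module, read 77.4, 74.9 and 72.0 CPM with B2, against 76.3, 72.8 and 82.5 CPM with DMSO. NDUFA6, which lies near the quinone site, read 68.1, 61.3 and 72.2 CPM with B2, against 73.3, 69.1 and 66.5 CPM with DMSO. NDUFAB1, the mitochondrial acyl carrier protein that complex I holds as a subunit, read 71.9, 75.9 and 74.8 CPM with B2, against 87.9, 65.4 and 66.8 CPM with DMSO. Its DMSO replicate 1 lay above every B2 library, and DMSO replicates 2 and 3 lay below them.

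Complex II, succinate dehydrogenase, links the citrate cycle to the chain. SDHA (chromosome 5, 218241 to 256700), its flavoprotein, read 227, 193 and 185 CPM with B2, against 253, 156 and 213 CPM with DMSO, with a log2 fold change of -0.041 (standard error 0.27). SDHB (chromosome 1, 17018722 to 17054170), the iron-sulfur subunit, read 152, 140.1 and 133 CPM with B2, against 159.6, 128 and 152 CPM with DMSO, with a log2 fold change of -0.049 and a 95% interval from -0.59 to 0.49. SDHA and SDHB were both highest in DMSO replicate 1 and lowest in DMSO replicate 2. SDHC, a membrane anchor, read 156, 141 and 147 CPM with B2, against 198, 129 and 160.4 CPM with DMSO, with the same highest and lowest libraries. The other anchor, SDHD (chromosome 11, 112086773 to 112120013), read 58.0, 72.3 and 79.6 CPM with B2, against 46.7, 98.3 and 72.1 CPM with DMSO, with DMSO replicate 1 lowest and DMSO replicate 2 highest. The subunits of this complex thus ran in opposite directions across the DMSO libraries, and the ratio of DMSO replicate 1 to DMSO replicate 2 was 0.475 for SDHD. Its log2 fold change between the groups was -0.048 with a standard error of 0.32.

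Complex III, the cytochrome bc1 complex, showed the same pair of patterns. UQCRC1 (chromosome 3, 48599002 to 48610976), a core protein of the complex, read 548, 476 and 729.9 CPM with B2, against 984, 393 and 615 CPM with DMSO, with means of 585 ± 131 CPM with B2 and 664 ± 298 CPM with DMSO (n = 3 each) and a log2 fold change of -0.18 (standard error 0.37). UQCRC2 (chromosome 16, 21952660 to 21983660), the other core protein, read 149.8, 197 and 226 CPM with B2, against 133, 262 and 162 CPM with DMSO: it was lowest in DMSO replicate 1 and highest in DMSO replicate 2. The ratio of these libraries was 0.507 for UQCRC2, and its log2 fold change between the groups was 0.040 (standard error 0.33). CYC1, cytochrome c1, read 208, 180.0 and 295 CPM with B2, against 376, 160.0 and 246 CPM with DMSO, in the order of UQCRC1, with a log2 fold change of -0.20. UQCRFS1, the Rieske iron-sulfur protein, read 188, 179.6 and 200.3 CPM with B2, against 209, 168 and 197 CPM with DMSO, much narrower than CYC1. UQCRB, which binds ubiquinone, read 117, 70.2 and 103 CPM with B2, against 106, 103 and 136 CPM with DMSO, and its lowest library was B2 replicate 2. The hinge protein UQCRH read 198, 199 and 177 CPM with B2, against 247, 189 and 158 CPM with DMSO. UQCRHL, a nearly identical copy of UQCRH, read 8.36, 7.73 and 7.97 CPM with B2, against 9.62, 7.46 and 5.81 CPM with DMSO, with a log2 fold change of 0.073. Reads can be shared between UQCRH and UQCRHL, so both values are uncertain.

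Complex IV, cytochrome c oxidase, stood at a median of -0.01, -0.14 and 0.05 log2 units from the gene means in B2 replicates 1 to 3, against 0.49, -0.32 and -0.01 in DMSO replicates 1 to 3. Its median in DMSO replicate 1 was the highest of the 5 complexes. COX4I1 (chromosome 16, 85798633 to 85807044), the regulatory subunit that binds ATP, read 430.4, 365 and 449 CPM with B2, against 671, 329 and 427 CPM with DMSO. It averaged 415 ± 43.8 CPM with B2 and 476 ± 176 CPM with DMSO (n = 3 each), with a log2 fold change of -0.20 (95% interval -0.92 to 0.53). COX5B, which binds zinc, read 107, 101 and 176 CPM with B2, against 192, 84.3 and 127 CPM with DMSO, so that each group spread widely around a log2 fold change of -0.071 (standard error 0.37). COX5A, a subunit on the matrix side, read 191, 177 and 204 CPM with B2, against 241, 169 and 179.7 CPM with DMSO. COX6C, a small transmembrane subunit, read 173, 146 and 147 CPM with B2, against 175, 149.5 and 147 CPM with DMSO, in a narrow range. COX7A2L, also called SCAF1, which joins complexes III and IV into supercomplexes, read 158, 148 and 143 CPM with B2, against 240.2, 127 and 158 CPM with DMSO, with a log2 fold change of -0.22 (standard error 0.29).

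Several complex IV subunits come in pairs of isoforms, and the libraries held mainly 1 of each pair. COX6A1, the ubiquitous form, read 172, 154 and 187 CPM with B2, against 281, 142 and 181.8 CPM with DMSO (log2 fold change -0.24, standard error 0.31), while COX6A2, the heart and muscle form, had 0 counts in each library. If each count were 1 read, a count of 0 would allow up to 3 counts, or 0.0386 to 0.0537 CPM depending on the library, from counting error alone. COX4I2, a form known from lung and linked to low oxygen, had 0.19, 0.12 and 0 CPM with B2, against 0.29, 0.05 and 0.18 CPM with DMSO. That amounted to 14, 9 and 0 counts with B2, so its log2 fold change of -0.68 had a standard error of 1.15. COX6B2, a testis form, had 36 counts in all and COX7A1, the muscle form paired with COX7A2, had 13. Small counts in this table are inexact, because low values fall in steps near 4, and the limit that a 0 allows may therefore lie above 3 counts. COX7B2, another testis form, and ATP5MGL, a copy of the complex V gene ATP5MG, had 0 counts in every library. These 5 genes, COX6A2, COX6B2, COX7A1, COX7B2 and ATP5MGL, were the members left untested. COX8C, described from testis, was measured at a low level of 10.3, 8.43 and 8.16 CPM with B2, against 10.8, 7.05 and 8.50 CPM with DMSO, with a log2 fold change of 0.031. Its counterpart COX8A read 186, 168 and 219 CPM with B2, against 311, 144 and 187 CPM with DMSO. NDUFA4 read 157, 138 and 174 CPM with B2, against 193, 128 and 175 CPM with DMSO. NDUFA4L2, a counterpart known to be induced by low oxygen, read 9.71, 8.30 and 6.64 CPM with B2, against 11.6, 8.42 and 6.75 CPM with DMSO. None of the tested genes of these pairs passed the test between B2 and DMSO.

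**Figure D3:**
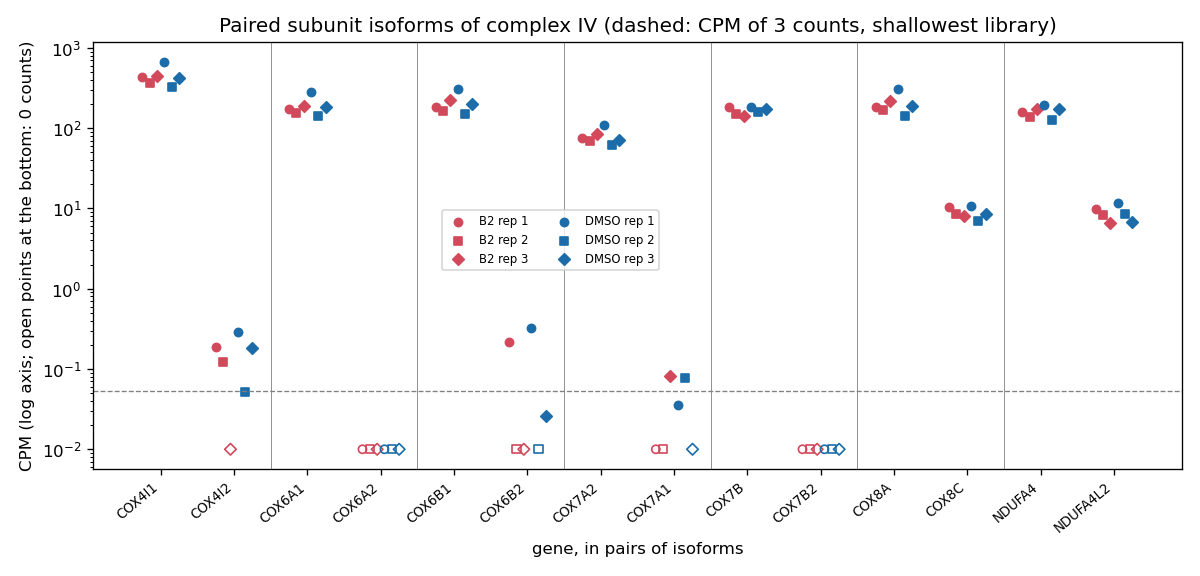
Level of 7 pairs of complex IV isoforms in each library, in CPM on a log axis, with B2 in red and DMSO in blue. Open symbols at the bottom are libraries with 0 counts, and the dashed line marks the CPM of 3 counts in the library where it is highest (0.0537), as a guide to scale. COX4I2, COX6A2, COX6B2, COX7A1 and COX7B2 lie at or below 0.322 CPM in all 6 libraries.

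Complex V, the ATP synthase, held the most abundant subunit RNAs. ATP5F1B (chromosome 12, 56638175 to 56646068), the catalytic beta subunit, read 1008, 937.3 and 975 CPM with B2, against 1389.7, 814 and 1038 CPM with DMSO, with means of 973 ± 35.5 CPM with B2 and 1081 ± 290.0 CPM with DMSO (n = 3 each) and a log2 fold change of -0.15 (standard error 0.28). ATP5F1A (chromosome 18, 46080248 to 46104334), the alpha subunit of the same catalytic head, read 889.5, 829 and 691 CPM with B2, against 784, 758 and 743 CPM with DMSO, with a log2 fold change of 0.077 (standard error 0.24). Its DMSO libraries lay close together, at an SD of 20.6 CPM, where those of ATP5F1B had an SD of 290 CPM. The membrane ring is built from the product of 3 genes that encode the same mature protein. Of these, ATP5MC1 read 57.0, 58.5 and 45.3 CPM with B2, against 94.8, 58.0 and 43.8 CPM with DMSO. ATP5MC2 read 231, 210.1 and 208 CPM with B2, against 359.6, 194 and 191 CPM with DMSO. ATP5MC3, the most abundant, read 543, 508 and 532 CPM with B2, against 870.0, 456 and 522 CPM with DMSO. Each of the 3 was highest in DMSO replicate 1, and the log2 fold change was -0.29 for ATP5MC1 and -0.22 for ATP5MC3. ATP5PB (chromosome 1, 111448864 to 111462773), a subunit of the peripheral stalk, had the most negative estimate of the complex, -0.35 (standard error 0.26, 95% interval -0.93 to 0.24). It read 122, 128 and 132 CPM with B2, against 159, 197 and 129 CPM with DMSO, so that DMSO replicate 2 was its highest library and the groups overlapped at DMSO replicate 3. ATP5PO, which joins the stalk to the head, had the most positive estimate of all the subunits, 0.083 (standard error 0.25), from 217, 209.5 and 211 CPM with B2, against 222, 219 and 159.8 CPM with DMSO. ATP5PF, another stalk subunit whose promoter is printed above, read 85.6, 79.2 and 73.7 CPM with B2, against 78.2, 88.1 and 75.2 CPM with DMSO, one of the steadiest of the set. It lies head to head with GABPA, with exons that overlap on opposite strands, and its exons also overlap JAM2 there. Without a known strand setting the reads of such genes cannot be told apart. ATP5PF is not alone in this: other genes overlap 35.7% of the exon length of NDUFS7 on the opposite strand and 34.5% of that of COX8A on the same strand.

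Per kilobase of transcript, levels spanned a wide range. Averaged over the 6 libraries, the highest were ATP5F1B at 1200 CPM per kb, ATP5F1A at 860 CPM per kb, ATP5MC3 at 679 CPM per kb and COX4I1 at 622 CPM per kb. Their ranges over the libraries were 951 to 1624 for ATP5F1B, 759 to 978 for ATP5F1A, 541 to 1033 for ATP5MC3 and 460.2 to 936.7 for COX4I1, so neighbours in that order did not separate. The lowest tested were COX4I2 at 0.200 CPM per kb, UQCRHL at 3.59 CPM per kb and NDUFA4L2 at 7.29 CPM per kb. The median was 81.2 CPM per kb for complex I, 154 for complex II, 133 for complex III, 197 for complex IV and 146 for complex V. These values depend on the annotated transcript lengths (the median over protein-coding transcripts of GENCODE 29). Partial transcripts count in that median, which can then fall short of the full RNA and raise the value per kb. The median was 856 bases for ATP5F1B, whose exons together cover 2322 bases. For UQCRFS1 both lengths were 3475 bases. The order of the genes and the medians by complex may therefore partly reflect these lengths. The median SD of log2 CPM over the 6 libraries was 0.28 for the subunits, 0.47 for all genes and 0.33 for the 3590 genes at or above the lower quartile of the subunits' levels.

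Differences between the DMSO libraries went along with the base composition of the transcripts. Over the 83 subunits, Spearman's rho between a gene's deviation and the GC content of its transcript was -0.27, -0.35 and 0.34 for B2 replicates 1 to 3 and 0.78, -0.70 and -0.05 for DMSO replicates 1 to 3. Over all genes with a value it was 0.19, -0.28 and 0.04 for B2 replicates 1 to 3 and 0.47, -0.56 and 0.10 for DMSO replicates 1 to 3. These correlations run across genes of the same libraries and are descriptions. The 42 subunits at or above the median GC of 49.9% had a median deviation of 0.63 in DMSO replicate 1 and -0.40 in DMSO replicate 2, while the 41 below it had 0.16 and -0.06. All 42 GC-rich subunits had a negative log2 fold change between B2 and DMSO (median -0.15), against 30 of the 41 others (median -0.05). Of all genes tested 62.1% were negative, and no share was taken for genes of like GC. A high DMSO replicate 1 lowers these fold changes by itself, so that count is not a separate result. Without DMSO replicate 1, 65 of the 83 subunits were positive. NDUFS1, SDHD and UQCRC2 were all below that median GC. With a trend on transcript length and GC removed from each library, the median subunit stood at 0.33 in DMSO replicate 1 and -0.19 in DMSO replicate 2, with 58 subunits highest in DMSO replicate 1. The subunits had shorter transcripts than genes at large, with a median of 703 against 1588 bases, and a like GC content of 49.9% against 50.8%. The sum of the epithelial markers was lowest in DMSO replicates 1 and 2, at 3.03 and 10.4 CPM. The median subunit, by contrast, was high in DMSO replicate 1 and low in DMSO replicate 2. The part of these markers in the differences was not tested.

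**Figure D4:**
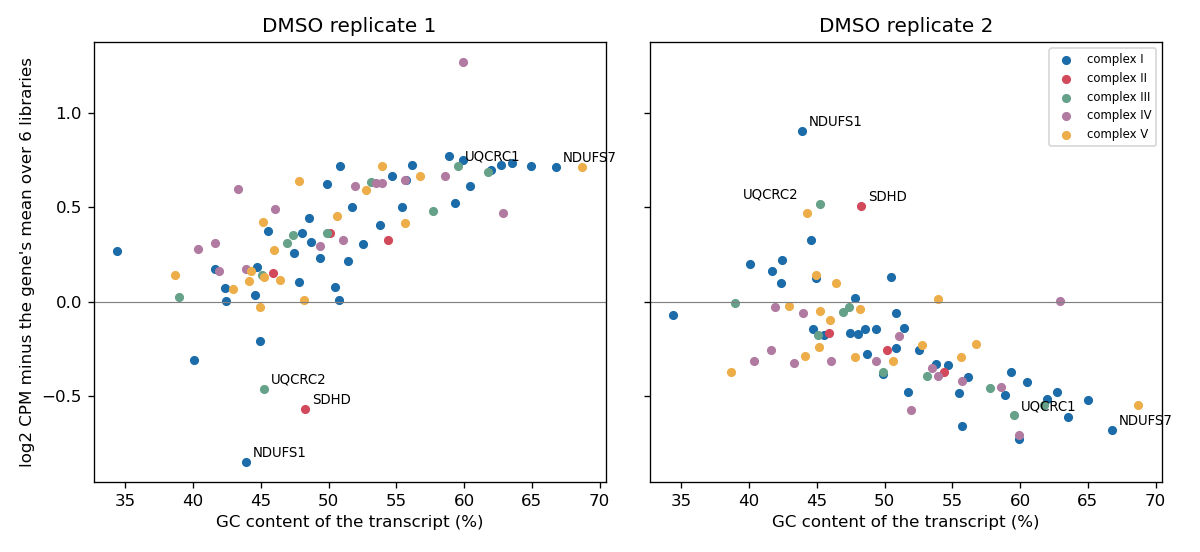
Deviation of each of the 83 tested subunits from its mean over the 6 libraries, in log2 units, against the GC content of its transcript in percent, for DMSO replicate 1 (left) and DMSO replicate 2 (right). Points are genes coloured by complex. The points climb with GC on the left (Spearman's rho 0.78) and descend on the right (-0.70), with NDUFS1, SDHD and UQCRC2 low on the left and high on the right.

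The 13 subunits encoded by mitochondrial DNA were compared with their nuclear partners. They summed to 74090, 61447 and 71482 CPM in B2 replicates 1 to 3, against 97086, 62491 and 55761 CPM in DMSO replicates 1 to 3. The ratio of the mitochondrial to the nuclear sum was 6.60, 5.97 and 6.08 with B2, against 6.36, 6.43 and 5.02 with DMSO, so that the groups overlapped. The ratio was steadier than either sum between DMSO replicates 1 and 2. In complex IV it was 17.4, 16.3 and 16.2 with B2, against 14.8, 18.3 and 12.97 with DMSO. In complex I it was 8.63, 7.95 and 7.41 with B2, against 8.33, 8.28 and 6.75 with DMSO. In complex III it was 1.20, 1.14 and 0.953 with B2, against 1.20, 1.28 and 0.793 with DMSO. In complex V it was 2.35, 1.98 and 2.22 with B2, against 2.67, 2.13 and 1.75 with DMSO. In all 4 complexes the lowest of the 6 ratios was in DMSO replicate 3. None of the 13 mitochondrial genes passed the edgeR test (0 of 13 also at an unadjusted p below 0.05), and the median log2 fold change was -0.10, with 2 positive and 11 negative.

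**Figure D5:**
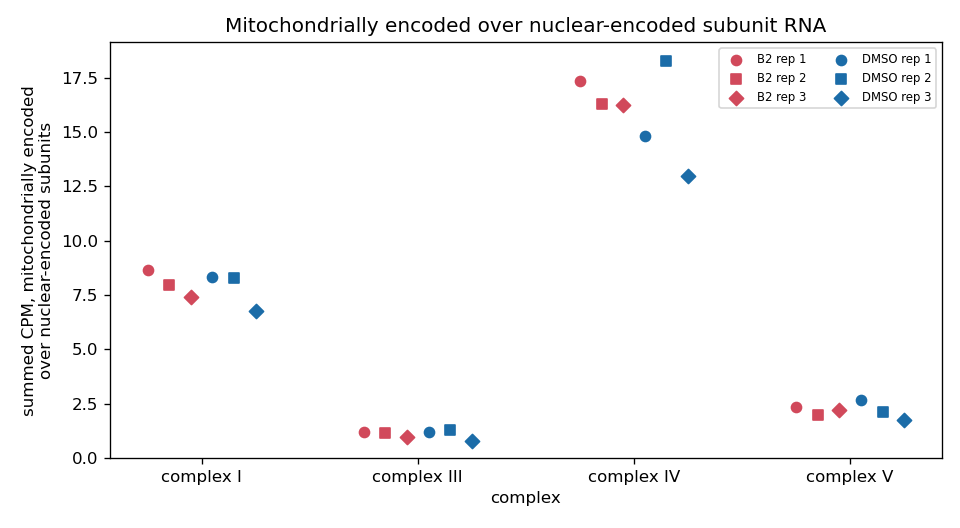
Ratio of the summed CPM of mitochondrially encoded subunits to that of nuclear-encoded subunits of the same complex, per library, on a linear axis from 0, with B2 in red and DMSO in blue. In complex IV the B2 libraries (16.2 to 17.4) lie within the range of the DMSO libraries (12.97 to 18.3).

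Between the replicate numbers, with treatment as a term, 461 of 17224 genes passed edgeR's test, which is 2.68%, and 0 of the 83 subunits did. At an unadjusted p below 0.05 there was 1 subunit of 83, NDUFS1, with an edgeR adjusted p of 0.142, beside 21.8% of all genes. The call depended on the handling of low counts: the edgeR adjusted p was 0.0491 when low counts were filtered more strictly and 0.0392 after division of the counts by 4. The highest mean was in number 1 for 65 subunits, in number 2 for 6 and in number 3 for 12, where number 1 was highest for 4970 of the 17224 genes. Within number 1, B2 replicate 1 was the highest of the 6 libraries in 3 subunits and DMSO replicate 1 in 64. B2 replicate 1 nevertheless lay above B2 replicate 2 in 72 of the 83 subunits, against 48.2% of all genes. DMSO replicate 1 lay above DMSO replicate 2 in 72 as well, against 42.7% of all genes. The median ratios of the subunits were 1.10 with B2 and 1.51 with DMSO. The libraries numbered 3, which stood apart in S100A9 and the macrophage markers, lay near the gene mean in the median subunit. Their median deviations were 0.04 log2 units with B2 and -0.03 with DMSO. Complex III stood higher in B2 replicate 3, at a median of 0.22, against 0.05 in DMSO replicate 3. Single subunits lay further off in B2 replicate 3, such as NDUFA3 at 0.60 and NDUFA10 at -0.45.

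Other genes of the same system gave 0 calls as well. Of the 16 complex I assembly factors, 0 passed the edgeR test (0 at an unadjusted p below 0.05), with 4 positive, 12 negative and a median log2 fold change of -0.12. Within that list NDUFAF4 read 7.13, 6.89 and 7.33 CPM with B2, against 8.56, 11.9 and 9.22 CPM with DMSO. TMEM126B, which helps to build the membrane arm, read 14.4, 14.2 and 18.6 CPM with B2, against 19.4, 24.3 and 21.7 CPM with DMSO. Both had every B2 library below every DMSO library, as did NDUFAF5. These 3 of 16 stand beside the 1.63% of all genes with such an order. Of the 35 assembly factors of complexes II to V, 0 were called, with 12 positive, 23 negative and a median of -0.10. Among them SDHAF3, which helps to load SDHB with its clusters, read 10.3, 7.23 and 7.91 CPM with B2, against 12.9, 16.6 and 10.7 CPM with DMSO. It was the 1 gene of these 35 with the groups apart, beside 1.63% of all genes with B2 entirely lower. Its unadjusted p was 0.0683, or 0.0431 with the replicate block (edgeR adjusted p = 1.0 in both fits). The 17 genes of electron carriers and coenzyme Q synthesis had 4 positive, 13 negative and a median of -0.07, with the carrier CYCS (cytochrome c) at 83.0, 94.2 and 107 CPM with B2, against 96.2, 130.0 and 132 CPM with DMSO. In that list COQ5, a methyltransferase of coenzyme Q synthesis, read 26.9, 27.3 and 26.8 CPM with B2, against 21.2, 25.0 and 23.7 CPM with DMSO, with every B2 library above every DMSO library, an order that 1.94% of all genes had. The 14 regulators of mitochondrial biogenesis had 4 positive, 10 negative and a median of -0.12. TFAM, which packages and transcribes mitochondrial DNA, read 13.2, 17.2 and 14.96 CPM with B2, against 15.9, 34.4 and 18.2 CPM with DMSO, with DMSO replicate 2 far above the rest. The 13 citrate cycle enzymes had 3 positive, 10 negative and a median of -0.11. B2 lay entirely below DMSO in 1 of the 13, SUCLA2, beside 1.63% of all genes. The 9 tested of 10 uncoupling, exchange and inhibitor genes had 3 positive, 6 negative and a median of -0.09. In these 6 lists 0 genes passed the edgeR test and 0 had an unadjusted p below 0.05, while with the replicate block SDHAF3 alone did, beside 1.32% of all genes.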

How the data were processed

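The 6 libraries, 3 of U937 cells with B2 and 3 with DMSO, were made from total RNA purified with TRIzol, per the labels' protocols. The authors deposited 1 table of estimated counts per Ensembl gene, without normalization. Reads had been aligned using HISAT2 (version 2.0.4, per the submitters' processing notes). How reads were counted, on which build and annotation and with what strand setting, is not given in the sources used here. All values were whole, so rounding changed nothing, but low values fall in steps near 4.

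Of 60612 identifiers, 60401 matched the table of gene names, and GENCODE 29 (GRCh38) named 187 others. The naming rule matched 271 rows, of which 88 were protein-coding members. Exons of 25 members overlap another gene on the same strand and exons of 35 on the opposite strand, and 159 pseudogenes are named after 45 members, so their counts may include or lose reads.

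Genes were kept with filterByExpr (minimum count 10, minimum total 15), which left 17224. CPM and log2 CPM (prior count 2) used TMM factors. The test was edgeR 4.0.16 under R 4.3.3 (glmQLFit, glmQLFTest, treatment as the only term, two-sided), adjusted by Benjamini-Hochberg over the genes tested, at a threshold of 0.05. Replicate numbers were tested with treatment as a covariate. Alternatives were DESeq2 1.42.0, limma-voom (limma 3.58.1), other scalings and filters, counts divided by 4, the replicate block, length and GC offsets (splines with 4 degrees of freedom) and each library left out. The fits were also run on simulated counts, which had no GC trend and no steps near 4, so that run does not cover those features.

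Libraries of the same number deviated together from the means of their groups, with correlations across genes of 0.21, 0.40 and 0.50 for numbers 1, 2 and 3, each above 0.1, and on that ground the numbers were taken as pairing libraries. Every fold change, error and p is nevertheless from the fit without pairs unless the replicate block is named. The pairing was read from the data alone and is weak. Each group was centred on its own mean, so a shift shared by the libraries numbered 3 also raises the correlations for numbers 1 and 2. Over the 83 subunits the correlations were 0.15, 0.41 and 0.05. For number 1, log2 CPM of B2 replicate 1 correlated at 0.964 with DMSO replicate 2 and at 0.959 with DMSO replicate 1.

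Members, lists, tests and the rule for named genes were chosen with earlier results of these data known. The rule took core subunits, the members of each complex with the smallest p or the most extreme fold change, tissue isoforms, untested members and up to 2 genes of each other list, 63 genes in all, of which the text prints a part. NDUFV3, NDUFA6, NDUFAB1, ATP5PF, UQCRH, NDUFAF5 and COQ5 were named after their values were seen. The single values of 1 member are not reported here, and the counts and medians include it.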

Additional observations from a re-analysis of the deposited data

How the results depend on the processing

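The subunits called between B2 and DMSO numbered 0 under each alternative that was run, with or without any single library, and 0 with the replicate block. The replicate block changed no call, and the median of the subunits was -0.074 with it, against -0.12 without it. Genes called over the whole table were 0, but 3 with DESeq2, 48 with the block and both libraries of number 3 left out, and 0 to 1 without single libraries (the 1 without B2 replicate 2). Between replicate numbers, 956 genes were called with RLE factors, 1168 with upper-quartile factors, 266 with library totals, 2110 with the stricter filter (minimum count 50) and 2379 with counts divided by 4. In the last 2 settings 1 subunit was called. The median over the subunits ran from -0.27 to 0.11 without single libraries, and that of complex II from -0.20 (without DMSO replicate 2) to 0.034. With library totals 41 subunits were highest in DMSO replicate 1.

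Single subunits lay near 0, and 22 of 26 genes followed through all alternatives changed sign at least once, 16 of them without DMSO replicate 1. Across the fits that left out 1 library, the log2 fold changes ran from -0.28 to 0.67 for NDUFS1, -0.37 to 0.23 for NDUFV1, -0.49 to 0.23 for NDUFS7, -0.24 to 0.13 for SDHA, -0.17 to 0.023 for SDHB, -0.31 to 0.044 for SDHC, -0.27 to 0.21 for SDHD, -0.48 to 0.18 for CYC1, -0.48 to 0.23 for UQCRC1, -0.13 to 0.35 for UQCRC2, -0.090 to 0.29 for UQCRHL, -0.47 to 0.088 for COX6A1, -0.45 to 0.081 for COX7A2L, -0.44 to 0.14 for COX4I1, -0.14 to 0.21 for COX8C, -0.37 to 0.29 for COX5B, -0.51 to 0.085 for ATP5MC1, -0.056 to 0.18 for ATP5PO, -0.35 to 0.080 for ATP5F1B, -0.013 to 0.17 for ATP5F1A and -0.44 to 0.12 for ATP5MC3. With both libraries of number 3 left out, NDUFS1 stood at -0.11, SDHA at 0.037, SDHB at 0.023, UQCRC2 at -0.19, UQCRHL at -0.086 and ATP5PO at -0.051. With the block as well, SDHA stood at 0.074, SDHB at 0.030, UQCRC2 at -0.12, UQCRHL at -0.075, COX4I2 at 0.25 and ATP5PO at -0.051. With the length and GC trend removed, NDUFV1 stood at 0.029, UQCRHL at -0.050 and COX8C at -0.042, and with the replicate block too NDUFV1 at 0.032 and COX8C at -0.017. With library totals SDHA stood at 0.064, SDHB at 0.043 and COX5B at 0.041. SDHD stood at 0.00064 with upper-quartile factors and at 0.0048 with the replicate block. The cause of these changes was not tested. COX4I2 was too low for the stricter filter and for counts divided by 4 and has no value there.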
